A study of Mus musculus with 6 samples.

Results

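The AP-1 and EGR immediate early transcription factors were read as 10 genes by symbol, Fos, Fosb, Fosl1, Fosl2, Jun, Junb, Jund, Egr1, Egr2 and Egr3, out of 24197 genes in the count table. All 10 were found and all 10 passed the filter on low counts, which left 13805 genes. The cells were stromal-vascular cells, the non-adipocyte fraction of fat, from the inguinal white depot of C57BL/6 mice. The puro group (3 libraries) had received a control (puro) retrovirus and the Prdm16 group (3 libraries) a Prdm16 retrovirus, both in standard growth medium; age, sex and the vector's promoter were not among the labels read. Prdm16 encodes a zinc-finger regulator of brown and beige adipocyte identity, and the contrast addresses the effect of expressing it in these cells. Whether replicates were separate cultures or animals is not stated, so p-values reflect only library-to-library spread, which may be technical.

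AP-1 is a dimer of basic leucine zipper proteins, in which FOS proteins must pair with a JUN protein while JUN proteins can also pair with each other. Fos, Fosb, Jun, Junb and the EGR genes are known as immediate early genes, transcribed within minutes of growth factor, stress or calcium signals through serum response factor, its ternary complex factors and CREB. Fosl1 and Fosl2 lack the strong activation domain of FOS and appear later and for longer, and Jund is the most constitutive JUN. EGR proteins are zinc-finger factors that bind GC-rich sites and are held in check by the NAB corepressors. In fat cell precursors, AP-1 and EGR factors are known as part of the early response to serum and to adipogenic signals.

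Library totals were 28169059 to 35798201 counts, and levels are given as CPM, counts scaled to library size by TMM; the limit that a count of 0 allows, 3 counts, was 0.0852 to 0.104 CPM. Counts of Prdm16 itself were 14, 22 and 25 with the puro virus and 72525 to 98437 with the Prdm16 virus, matching the labels. Of 12 markers of adipose stromal cells, Dpp4 and Pi16 were near background, with at most 10 counts in a library, and Thy1 had at most 20, while Pdgfra was at 199 ± 9.57 and 188 ± 6.64 CPM in the puro and Prdm16 groups. The summed level of these 12 markers was 10000 to 10800 CPM in puro and 4800 to 5120 CPM in Prdm16 libraries. Of the 10 tested, 8 fell, among them Col1a1 by 11.7-fold and Cd34 by 17.1-fold, 1 rose (Ly6a, 376 ± 9.20 to 988 ± 25.1 CPM) and Pdgfra did not pass. Over all tested genes 37.5% rose and 38% fell, the shares to set beside each count of marker genes here. Of 12 macrophage markers, Emr1, Tyrobp, C1qa and C1qb had 0 counts in all libraries and the list summed to 14.3 to 15.7 CPM in puro and 8.81 to 8.92 CPM in Prdm16 libraries. The 9 lymphocyte markers summed to at most 0.276 CPM in any library, with Cd3e, Cd8a, Ms4a1 and Ncr1 at 0. Of 9 endothelial markers, Cdh5 and Cldn5 had 0 counts in all libraries, and the list summed to 14.1 to 15.2 CPM in puro and 22.4 to 23.4 CPM in Prdm16 libraries. Of the 4 tested, Tek rose (1.19 ± 0.134 to 10.2 ± 1.45 CPM), Vwf fell (1.78 ± 0.232 to 0.298 ± 0.0243 CPM), and Kdr and Egfl7 did not pass. Markers of mammary epithelium went from 0.287 to 0.328 CPM up to 26.7 to 28.2 CPM, with Krt8, Krt14, Krt5 and Csn3 at 3 counts or fewer in each library. Those of mesothelium went from 6.39 to 6.90 CPM up to 96.4 to 102 CPM. Most of this was Msln (6.30 ± 0.266 to 91.2 ± 3.10 CPM), and Krt19 rose from 0.102 ± 0.0389 to 7.20 ± 0.549 CPM. The mesothelial markers Upk3b and Lrrn4 were untested, at 12 counts or fewer in each library. Pericyte and smooth muscle markers fell from 254 to 312 CPM to 30.4 to 41.2 CPM, with Kcnj8 at 0 throughout. Most of this sum was Acta2 (250.8 ± 33.67 to 32.08 ± 5.886 CPM), and the 4 tested markers of the list all fell. Adipocyte markers went from 104 to 122 CPM up to 517 to 616 CPM, with Plin1, Lep and Retn at 6 counts or fewer in each library. Most of this sum was Fabp4 (115.3 ± 10.05 to 551.3 ± 51.3 CPM). Adipoq and Cidec also rose, to only 2.357 ± 0.1651 and 3.457 ± 0.4242 CPM in the Prdm16 libraries. Schwann cell markers summed to at most 5.55 CPM, with Sox10 at 0. In bulk RNA, a changed number of cells of a type and a changed RNA content per cell cannot be told apart, and the part of these markers in the results that follow was not tested.

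Egr3, Fosl2, Fos and Egr1 rose in the Prdm16 libraries, and Fosb and Fosl1 fell. Jun, Junb, Jund and Egr2 did not pass the test. The 6 calls were made at an adjusted p below 0.05 by the edgeR quasi-likelihood test, Benjamini-Hochberg adjusted across all tested genes, where 75.6% of all genes passed. So 6 of 10 members is no more than the share of all genes. All genes divided into 37.5% higher and 38% lower, and the members into 4 higher and 2 lower. The same 6 members were those whose groups did not overlap in CPM, as was true of 77.6% of all genes (38.4% higher and 39.2% lower). The median log2 fold change was 0.38 over the members and −0.01 over all tested genes. Log2 fold changes are Prdm16 over puro throughout, with SE, and levels are mean ± SD with n = 3.

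**Figure D1:**
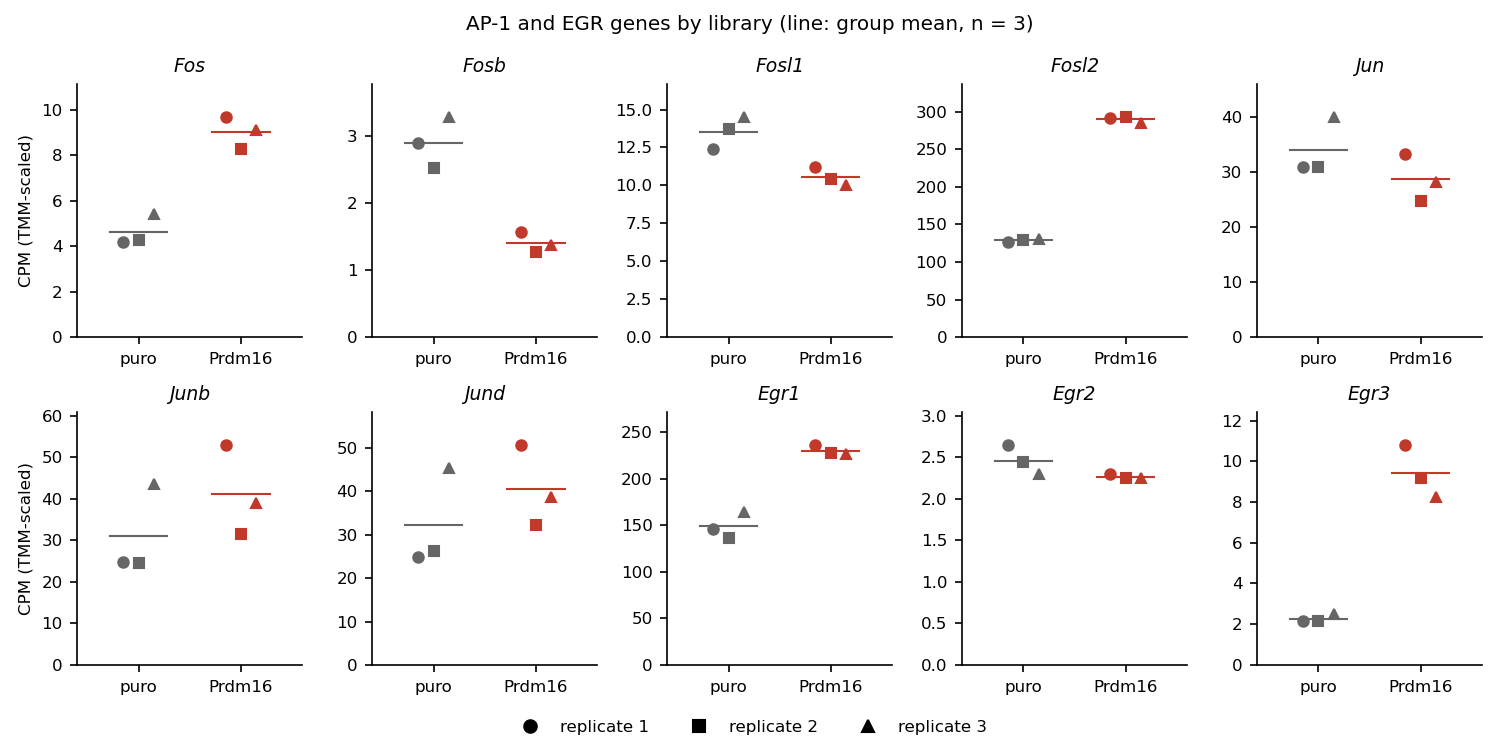
Each panel plots 1 gene; the vertical axis is CPM from 0 and the points are the 3 libraries of each group, with a line at the group mean. Puro and Prdm16 points are separate for Fos, Fosb, Fosl1, Fosl2, Egr1 and Egr3, and they overlap for Jun, Junb, Jund and Egr2.

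Promoter sequence is shown for the members whose window held a motif match, whether or not they passed the test. Windows were taken from RefSeq on build GRCm38.p6, which held 7 of the 10 members; Fosl1, Egr1 and Egr3 are named only. Each line gives the 250 bases upstream of the annotated start, 5′ to 3′ on the gene's strand, with motif matches in capitals.
Fosl2, chr5:32136222-32136471, plus strand: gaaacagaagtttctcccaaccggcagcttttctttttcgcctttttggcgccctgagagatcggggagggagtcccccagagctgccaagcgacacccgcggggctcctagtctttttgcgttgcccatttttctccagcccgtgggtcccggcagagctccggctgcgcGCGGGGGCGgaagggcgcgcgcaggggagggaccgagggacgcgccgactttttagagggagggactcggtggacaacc
Fosb, chr7:19310046-19310295, minus strand: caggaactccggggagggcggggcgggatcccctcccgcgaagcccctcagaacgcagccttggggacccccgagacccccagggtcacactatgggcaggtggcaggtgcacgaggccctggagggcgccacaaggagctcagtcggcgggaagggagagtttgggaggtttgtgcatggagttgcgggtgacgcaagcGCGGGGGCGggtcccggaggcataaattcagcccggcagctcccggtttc
Fos, chr12:85473640-85473889, plus strand: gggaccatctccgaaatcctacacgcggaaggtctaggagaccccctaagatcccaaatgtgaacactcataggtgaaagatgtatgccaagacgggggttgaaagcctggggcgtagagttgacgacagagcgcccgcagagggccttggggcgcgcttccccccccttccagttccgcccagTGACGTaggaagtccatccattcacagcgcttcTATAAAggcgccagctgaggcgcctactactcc
Jun, chr4:95052223-95052472, minus strand: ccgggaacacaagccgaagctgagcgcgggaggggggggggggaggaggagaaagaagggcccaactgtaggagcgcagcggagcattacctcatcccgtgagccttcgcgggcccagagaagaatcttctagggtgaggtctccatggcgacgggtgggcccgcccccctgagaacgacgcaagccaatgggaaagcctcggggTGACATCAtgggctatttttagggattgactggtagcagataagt
Egr2, chr10:67537619-67537868, plus strand: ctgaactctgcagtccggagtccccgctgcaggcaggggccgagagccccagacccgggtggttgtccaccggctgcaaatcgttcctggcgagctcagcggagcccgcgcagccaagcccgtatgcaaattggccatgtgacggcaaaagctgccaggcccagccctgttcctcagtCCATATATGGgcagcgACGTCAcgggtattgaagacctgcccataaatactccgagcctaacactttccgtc

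The motifs searched on both strands were the AP-1 site TGANTCA, the CRE-like site TGACNTCA, the CRE core TGACGT, which overlaps the CRE-like site in its full form, the EGR site GCGNGGGCG and the CArG box of serum response factor. The TATA box TATAAA was searched on the gene's strand. The EGR site was found upstream of Fosl2, at −79 to −71 from the start, and of Fosb, at −50 to −42, and in 4.7% of 32851 windows of all genes. The CRE core lay at −66 to −61 in Fos, which also had a TATA box at −33 to −28, and was present in 6.47% of all windows. Jun had a CRE-like site at −45 to −38, as did 7.49% of windows. Egr2 had 5 annotated starts, and the window shown held a CArG box at −72 to −63, a motif found in 1.47% of windows, and a CRE core. The windows of Junb and Jund held none of the letters searched, and no member window held TGANTCA, which was in 6.75% of all windows. A match describes the letters in this window only.

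Among the FOS genes, Fosl2, the long-lived FOS relative also called FRA-2, had the tightest replicates. Fosl2 was at 127, 130 and 131 CPM in the puro libraries and at 292, 292 and 285 CPM in the Prdm16 libraries. Every Prdm16 library lay above every puro library, with a coefficient of variation of 1.54% and 1.31% within the groups against a median of 4.78% and 4.79% over all tested genes. Its log2 fold change was 1.16 ± 0.03 (2.24-fold, adjusted p = 8.37e-11), a size that 19% of all tested genes exceeded in either direction.

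Fos, the founding immediate early member, was at 4.19, 4.27 and 5.39 CPM in the puro libraries and at 9.66, 8.26 and 9.11 CPM in the Prdm16 libraries. The groups were apart, with puro replicate 3 the highest of its group. The log2 fold change was 0.96 ± 0.11 (adjusted p = 1.33e-05), from 130 to 181 counts per puro library.

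Fosb, a close relative of Fos, moved the other way. It was read from 88 to 110 counts in puro and 37 to 55 in Prdm16 libraries, at 2.90, 2.52 and 3.28 against 1.56, 1.28 and 1.38 CPM. All Prdm16 libraries lay below all puro libraries, and the log2 fold change was −1.03 ± 0.16 (adjusted p = 0.000102).

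Fosl1, the FOS relative also called FRA-1, was at 12.4, 13.7 and 14.5 CPM in the puro libraries and at 11.2, 10.4 and 10.03 CPM in the Prdm16 libraries. The groups did not overlap, though the gap between them was small, and Fosl1 fell by 0.36 ± 0.08 on the log2 scale (adjusted p = 0.00174). Its chromosome, 19, had a median log2 fold change of 0.39 over 493 tested genes, and the value was −0.75 after subtracting chromosome medians. Exons of Fosl1 overlap those of Ccdc85b on the opposite strand in GENCODE M21, and no source used here states whether counting used strand, so reads of the pair cannot be told apart.

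Among the JUN genes no member passed, and the replicates of Junb and Jund were widely spread. Jun, the strongest activator of the family, was at 30.9, 30.9 and 39.9 CPM in the puro libraries and at 33.3, 24.7 and 28.2 CPM in the Prdm16 libraries. The groups overlapped, and the log2 fold change was −0.24 ± 0.12 (95% confidence interval −0.50 to 0.02, adjusted p = 0.0865).

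Junb, a JUN protein known to restrain JUN at some targets, was at 24.7, 24.5 and 43.5 CPM in the puro libraries and at 52.9, 31.6 and 39.1 CPM in the Prdm16 libraries. Puro replicate 3 stood above the other puro libraries and above 2 of the 3 Prdm16 libraries. The log2 fold change was 0.42 ± 0.22 (interval −0.07 to 0.91, adjusted p = 0.108).

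Jund was at 24.9, 26.2 and 45.4 CPM in the puro libraries and at 50.6, 32.3 and 38.7 CPM in the Prdm16 libraries, with the same libraries high and low as for Junb. Its log2 fold change was 0.34 ± 0.21 (interval −0.14 to 0.81, adjusted p = 0.173). Without puro replicate 3, Junb and Jund passed with 0.75 (adjusted p = 0.00132) and 0.67 (adjusted p = 0.00122). Junb also passed without Prdm16 replicate 2 (0.57, adjusted p = 0.0428), and Jun without Prdm16 replicate 1 (−0.35, adjusted p = 0.015). Exons of Jun, Junb and Jund overlap those of Junos, Prdx2 and Gm11175 on the opposite strand in GENCODE M21, which unstranded counting would not separate.

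**Figure D2:**
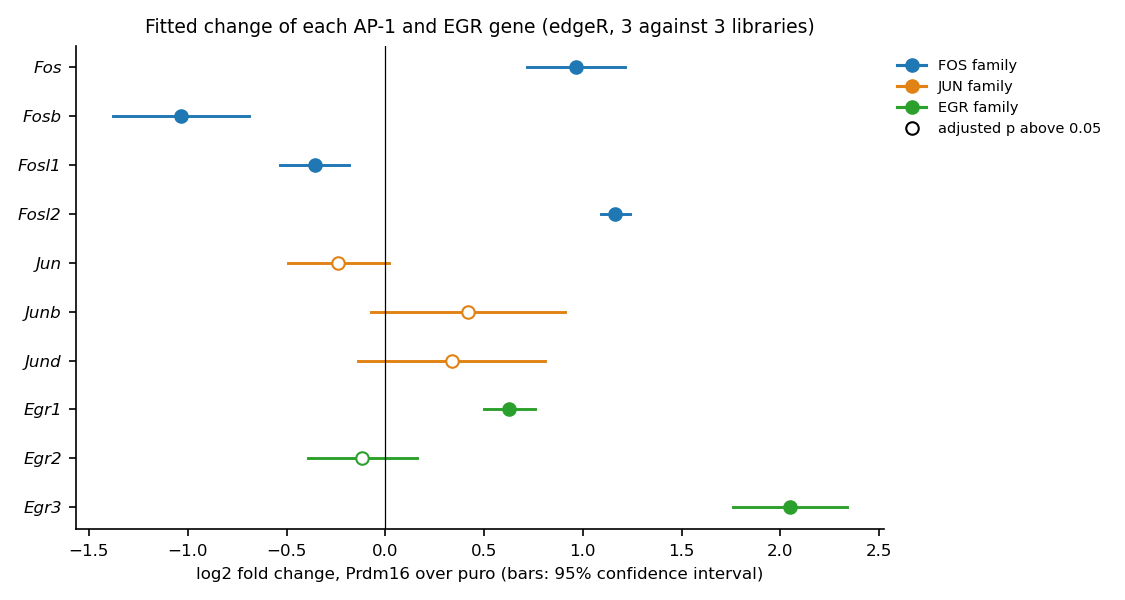
Points are fitted log2 fold changes, Prdm16 over puro, with 95% confidence intervals as bars; open points had an adjusted p above 0.05 and colours mark the families. The interval of Egr3, from 1.76 to 2.34, lies highest, and the intervals of the 3 JUN genes and Egr2 include 0.

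The spread of the JUN genes is set here beside that of GC-rich transcripts, whose part in it was not tested. Junb and Jund had coefficients of variation of 35.1% and 35.7% in the puro group, larger than in all but 3.21% and 3.14% of tested genes. Relative to its group mean on a log2 scale, puro replicate 3 was higher by 0.54 for Junb, 0.55 for Jund and 0.24 for Jun, and Prdm16 replicate 1 by 0.39, 0.34 and 0.22. Transcripts of Jund and Junb were 67.2% and 62.6% GC and that of Jun 55.5%, while Fosl1, at 58.5%, had coefficients of variation of 7.84% and 5.57%. The 1370 tested genes with the highest GC content, at or above 57.9%, had median deviations of 0.12 in puro replicate 3 and 0.09 in Prdm16 replicate 1, and of −0.09 in Prdm16 replicate 2. Of 32 other immediate early genes tested, 4 are named here after their values were seen. Ier2 and Ier5l, at 60.91% and 63.85% GC, were highest of their groups in puro replicate 3 and Prdm16 replicate 1. Ier5l had 179, 239 and 513 counts in the puro and 969, 399 and 637 in the Prdm16 libraries. Dusp1 and Btg1, at 53.96% and 43.05% GC, were lowest of their groups in the same libraries. With a loess trend on GC content removed from each library, an alternative chosen after seeing the data, Jun had −0.26 (adjusted p = 0.0164), Junb 0.36 (adjusted p = 0.0333) and Jund 0.29 (adjusted p = 0.0255), and 9 of the 10 members passed; over all genes 10870 then passed, against 10430 without the correction. This setting changed the calls of the 3 JUN genes, while the sign of each was the same.

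**Figure D3:**
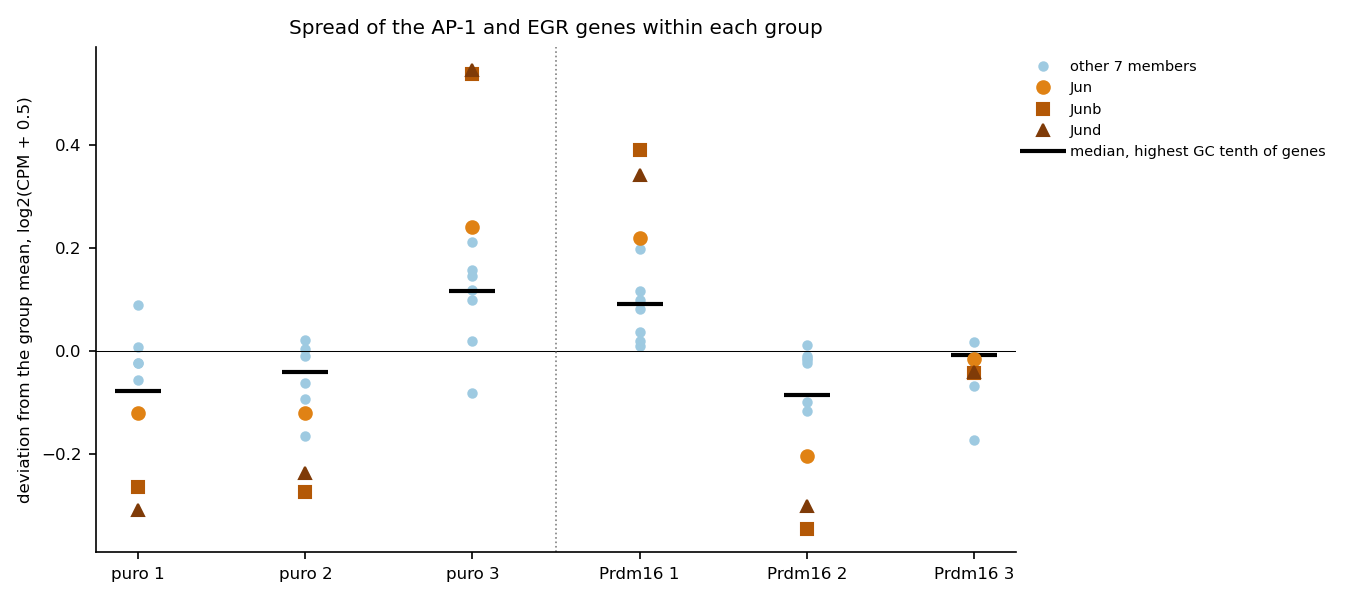
The vertical axis is each gene's deviation from its own group mean in log2(CPM + 0.5), for the 6 libraries; black bars are the median of the 1370 genes with the highest GC content. Junb and Jund lie farthest from 0 in every library except Prdm16 replicate 3, where Egr3 does (−0.17), and the black bars have the same sign as Junb and Jund in all 6 libraries.

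Among the EGR genes, Egr3 had the largest change of the 10 members. Egr3, a target of calcium and growth factor signals in lymphocytes, muscle spindles and neurons, was at 2.16, 2.15 and 2.50 CPM in the puro libraries and at 10.8, 9.19 and 8.24 CPM in the Prdm16 libraries. The lowest Prdm16 library was above the highest puro library, and the log2 fold change was 2.05 ± 0.13 (4.14-fold, adjusted p = 7.74e-08), exceeded in size by 9.96% of tested genes. Genes of its chromosome, 14, had a median of 0.49 over 446 tested genes, and the value of Egr3 was 1.56 with chromosome medians removed.

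Egr1, the most studied EGR and a serum-induced gene, was at 146, 137 and 164 CPM in the puro libraries and at 236, 227 and 227 CPM in the Prdm16 libraries. The groups were apart and the Prdm16 libraries were tighter, with a coefficient of variation of 2.26% against 9.45%. Egr1 rose by 0.63 ± 0.06 on the log2 scale (adjusted p = 1.96e-06). Its chromosome, 18, had the lowest median of all, −0.40 over 389 tested genes, and Egr1 had 1.02 once chromosome medians were removed. Egr2, known for Schwann cell myelination and as an early factor of adipogenesis, was at 2.64, 2.44 and 2.29 CPM in the puro and 2.30, 2.24 and 2.25 CPM in the Prdm16 libraries. The groups overlapped, and the interval of its log2 fold change ran from −0.39 to 0.16 (−0.12 ± 0.13, adjusted p = 0.431).

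Levels of different genes were compared as CPM per kb of the longest GENCODE M21 transcript. In the puro libraries Egr1 was highest at 33.2 ± 3.14 CPM per kb, followed by Fosl2 at 19.8 ± 0.304, Jund at 19.3 ± 6.89 and Junb at 17.1 ± 6.00, which did not differ beyond their spread. Then came Jun at 10.6 ± 1.62, Fosl1 at 7.25 ± 0.569 and Fos at 2.19 ± 0.319, and lowest were Egr2 at 0.829 ± 0.0594, Fosb at 0.767 ± 0.0998 and Egr3 at 0.576 ± 0.0510, of which Egr2 and Fosb lay within their spread. In the Prdm16 libraries Egr1 (51.3 ± 1.16) and Fosl2 (44.3 ± 0.580) stood above all others. Jund and Junb followed at 24.3 ± 5.58 and 22.8 ± 5.98, within their spread of each other, and Jun was at 9 ± 1.35. Fosl1 was at 5.66 ± 0.315, Fos at 4.27 ± 0.335 and Egr3 at 2.39 ± 0.328, and Egr3 stood above Egr2 at 0.764 ± 0.0106 and Fosb at 0.372 ± 0.0381. The lengths come from another build than the counts, and parts of this order turned with the mean transcript length of each gene. Junb then lay above Jund in both groups (26.9 ± 9.44 against 19.3 ± 6.89 in puro), and Fosl1 above Jun in both (14.9 ± 1.17 against 10.6 ± 1.62 in puro). In the Prdm16 libraries Fosl2 then lay above Egr1, at 74.2 ± 0.970 against 61.2 ± 1.38.

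Each family was led by 1 or 2 genes. Fosl2 held 66.0 ± 1.66% of the summed FOS level per kb in puro and 81.1 ± 0.861% in Prdm16 libraries, and the share of Fosl1 went from 24.2 ± 0.994% to 10.4 ± 0.395%. Fos kept a share of 7.29 ± 0.782% and 7.82 ± 0.561%, a difference smaller than the spread of the replicates, and Fosb went from 2.56 ± 0.286% to 0.680 ± 0.0615%. The summed FOS level was 30.0 ± 1.20 CPM per kb in puro and 54.6 ± 0.954 in Prdm16 libraries. The summed JUN level was 47.0 ± 14.5 and 56.1 ± 12.9, overlapping between the groups. Whether the JUN or the FOS sum was the higher depended on the length used: in puro replicate 1 they were 38.3 and 28.8 with the longest transcript and 46.1 and 50.9 with the mean length, so no order of the families is given. Egr1 held 95.9 ± 0.325% and 94.2 ± 0.467% of the EGR sum, and Egr3 1.67 ± 0.0518% and 4.37 ± 0.485%.

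**Figure D4:**
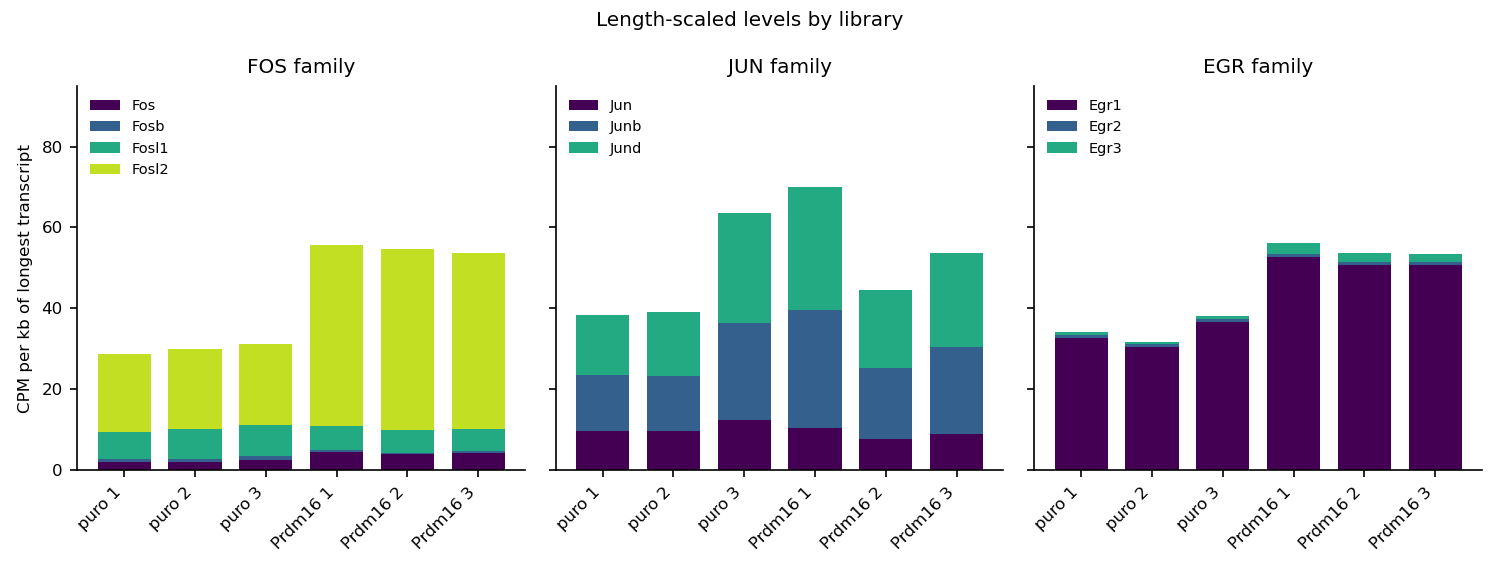
Bars are the 6 libraries and their height is CPM per kb of the longest transcript, stacked by member, on a common axis from 0. The FOS and EGR stacks are higher in all Prdm16 libraries, with Fosl2 and Egr1 as the largest blocks, and the JUN stack varies from 38.3 to 70.0 with no separation of the groups.

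Genes that act beside the members were read from lists. NAB1 and NAB2, the corepressors that bind EGR proteins, both rose: Nab1 by 0.70 ± 0.05 and Nab2, itself a known EGR target, by 0.88 ± 0.06 on the log2 scale (adjusted p = 1.21e-07 and 1.83e-07). Nab2 had 94.0 ± 7.30 CPM in the puro and 173 ± 11.6 CPM in the Prdm16 libraries. Egr4 had 1 count in all, and Wt1, a zinc-finger factor with an EGR-like binding site, had 75 counts in the 3 puro libraries together and 1 in the 3 Prdm16 libraries; the puro to Prdm16 ratio was 73.6, with an exact 95% binomial counting interval of 12.8 to 2940 that covers counting error only.

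Of 17 other bZIP proteins that can pair with FOS, JUN or MAF, 15 were tested. Of these 4 rose, 8 fell and 3 did not pass, with a median log2 fold change of −0.27. Over all tested genes 37.5% rose and 38% fell. Maf, a large MAF protein, fell from 56.8 ± 4.65 to 10.1 ± 0.362 CPM (−2.50 ± 0.07). Ddit3 and Atf4, factors of the integrated stress response, had −1.55 ± 0.05 and −0.68 ± 0.03, the latter −0.30 with chromosome medians removed. Named after their values were seen, Atf3, a stress-induced JUN partner, rose by 1.01 ± 0.07, and Jdp2, a repressive JUN partner, fell by 1.50 ± 0.09.

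Other immediate early genes went both ways, as the members did. Of 32 tested, 14 rose, 14 fell and 4 did not pass, with a median log2 fold change of 0.00. Over all tested genes 37.5% rose and 38% fell. Nr4a1, an orphan nuclear receptor, rose from 10.6 ± 0.638 to 92.8 ± 6.74 CPM (3.13 ± 0.07, adjusted p = 1.03e-11), and Arc and Trib1 rose by 1.79 ± 0.06 and 1.56 ± 0.06. The relatives Nr4a2 and Nr4a3, named after their values were seen, rose by 2.31 ± 0.12 and 3.63 ± 0.20. The polo-like kinase Plk2 fell by 1.25 ± 0.04, and so did, again named after their values were seen, Myc by 1.08 ± 0.08 and Klf4 by 1.48 ± 0.12. Nr4a1, Arc, Trib1 and Myc lie on chromosome 15, which had a median of −0.38 over 578 tested genes. Npas4 was too low to be tested.

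**Figure D5:**
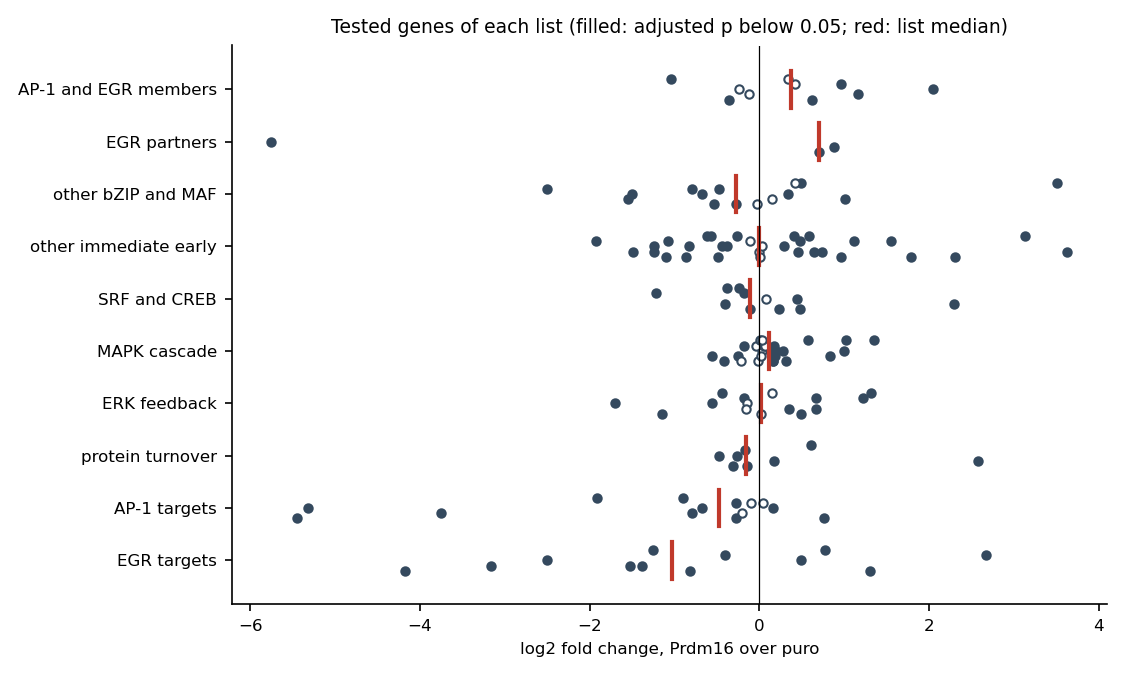
Each point is a tested gene of a list and the horizontal axis is its log2 fold change, Prdm16 over puro; filled points had an adjusted p below 0.05 and red lines are list medians. Most lists have points on both sides of 0. The medians of EGR targets (−1.03), AP-1 targets (−0.48), other bZIP and MAF (−0.27), protein turnover (−0.16) and SRF and CREB (−0.11) lie below it.

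Upstream of the members, the list of serum response factor, its partners and CREB had 4 higher, 6 lower and 1 not passing among 11. The number lower was 4 with chromosome medians removed and 5 with DESeq2 or the replicate block. Crem, a CREB relative that is itself cAMP-inducible, rose from 5.48 ± 0.0916 to 27.0 ± 1.30 CPM (2.30 ± 0.07, adjusted p = 1.27e-10) and Creb1 rose by 0.48 ± 0.04. Mkl1, the actin-regulated coactivator of serum response factor, fell by 1.21 ± 0.06, and the ternary complex factor Elk3 fell by 0.41 ± 0.04. The chromosomes of Mkl1 and Crem, 15 and 18, had median log2 fold changes of −0.38 and −0.40. In the MAPK cascade 13 rose, 4 fell and 9 did not pass among 26, with a median of 0.11. Over all tested genes 37.5% rose and 38% fell. Map2k1 and Map2k2, named after their values were seen, fell by 0.42 ± 0.04 and 0.56 ± 0.08. The ribosomal S6 kinase Rps6ka1 rose by 1.36 ± 0.04, the p38 activator Map2k6 by 1.02 ± 0.06 and Map3k1, a kinase above JNK, by 0.83 ± 0.05. Rps6ka4, a nuclear kinase also called MSK2, rose from 62.1 ± 6.96 to 124 ± 5.44 CPM (log2 fold change 0.9995 ± 0.07), and had 0.61 with chromosome medians removed.

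A list of feedback inhibitors of ERK signalling and other MAPK phosphatases had 6 higher, 5 lower and 4 not passing among 15 tested. Over all tested genes 37.5% were higher and 38% lower. The Sprouty genes moved apart: Spry2 rose from 22.1 ± 0.302 to 51.9 ± 0.585 CPM (1.23 ± 0.04), 0.74 with chromosome medians removed, and Spry1 fell from 27.4 ± 2.06 to 8.47 ± 0.0714 CPM (−1.70 ± 0.07). The MAPK phosphatase genes Dusp16 and Dusp10, which are not specific to ERK, had 0.67 ± 0.04 and −1.14 ± 0.07. Named after their values were seen, Dusp6 and Dusp5 rose by 1.32 ± 0.10 and 0.67 ± 0.09, and Dusp4 did not pass (−0.14 ± 0.09). Of 8 genes that act on the stability of FOS or JUN proteins, 3 rose and 5 fell. Trib2, a pseudokinase adaptor of the COP1 ligase, rose by 2.58 ± 0.07 and Itch, a ligase of JUN proteins, by 0.61 ± 0.05. Fbxw7, a substrate adaptor of a ubiquitin ligase of JUN, had −0.27 ± 0.06, and its call was lost with chromosome medians removed, at −0.07 (adjusted p = 0.275). With that setting 2 genes of this list were lower in place of 5.

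Of 14 tested textbook targets of AP-1, 9 fell, 2 rose and 3 did not pass, with a median of −0.48; of all tested genes 75.6% passed and 38% were lower. The metalloproteases Mmp13, Mmp9 and Mmp3 fell, with log2 fold changes of −5.44 ± 0.28, −5.32 ± 0.26 and −3.75 ± 0.18; Mmp13 had 157, 176 and 127 counts in the puro and 2, 3 and 5 in the Prdm16 libraries. Cd44, a hyaluronan receptor, fell by 0.79 ± 0.04. Spp1 and Hbegf, the 2 exceptions, rose by 0.76 ± 0.07 and 0.16 ± 0.05 and were picked out with their values known. With puro replicate 1, puro replicate 2 or else Prdm16 replicate 2 left out, 1 gene of this list rose in place of 2. Textbook targets of EGR proteins had 8 lower and 4 higher among 12 tested, with a median of −1.03. Col1a2, a collagen I chain, fell from 3429 ± 191 to 189 ± 10.9 CPM (−4.18 ± 0.06), and F3, tissue factor, from 244 ± 4.59 to 27.3 ± 0.948 CPM (−3.16 ± 0.04). The matrix protein Tnc had −1.52 ± 0.04. These lists hold targets named in textbooks for other cells, and binding of AP-1 or EGR proteins was not measured.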

How the data were processed

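The 6 libraries of polyadenylated RNA (Trizol and PureLink extraction and an Illumina TruSeq RNA kit, per the labels' protocols) were deposited by the authors as raw counts per gene symbol, in 1 table. The submitters' processing notes name STAR, featureCounts, Subread and build mm9; for versions, strand setting and shared reads: not given in the sources used here. Members and lists were chosen with earlier results of these data known.

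Counts were fitted with edgeR 4.0.16 in R 4.3.3: filterByExpr (10392 genes with 0.0297% of counts removed), TMM, a two-sided quasi-likelihood test of Prdm16 against puro, and Benjamini-Hochberg adjustment over 13805 genes at 0.05. The procedure was run on simulated data with few changed genes, up and down alike, and the same dispersion for all genes. The data here differ, with 75.6% of tested genes called and unequal spread, so that run does not test these calls. Replicate pairs had a chi-square of 2.08 to 8.85 per gene, above the sampling noise, so each library was counted. Lengths, GC content and chromosomes came from GENCODE M21 on another build (98.4% of genes matched by symbol). Named genes were the 10 members, Prdm16, up to 4 genes with the smallest p per pathway list, and lists of 5 or fewer; some genes this rule names are not reported here. Alternatives used other scalings and filters, DESeq2 1.42.0, limma-voom (limma 3.58.1), a replicate block, chromosome medians, Prdm16 left out, a threshold of 0.01 and each library left out; a GC correction was added after seeing the data.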

Additional observations from a re-analysis of the deposited data

How the results depend on the processing

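Fos, Fosb, Fosl1, Fosl2, Egr1 and Egr3 kept their direction and their call under all 17 alternatives run for each, and Egr2 stayed short of the threshold in all 17. The calls of the JUN genes depended on the setting. Jun passed with DESeq2 (−0.24), with the replicate block (−0.24) and with the GC trend removed (−0.26), and ranged from −0.35 to −0.10 when each library was left out. Junb passed without a low-count filter (0.44), with the replicate block (0.43) and with the GC trend removed (0.36), and ranged from 0.20 to 0.75 with libraries left out. Jund passed with the GC trend removed (0.29) and ranged from 0.15 to 0.67 with libraries left out. The members called were 6 as reported, 8 with the replicate block and 9 with the GC trend removed. The replicate numbers share no stated source: the correlations of same-numbered libraries' deviations were −0.30, 0.15 and −0.11, so the numbers were not taken to pair the samples. Over all genes, 10089 passed with the replicate block and 10870 with the GC trend removed, against 10430. Depth limits Fosb, Egr2 and Egr3 most, with 37 to 110, 65 to 85 and 67 to 380 counts per library.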
